A study of Mus musculus with 4 samples.

Results

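The genes described here are 10 inducible transcription factor genes of 3 families, the zinc finger genes Egr1, Egr2 and Egr3, the orphan nuclear receptor genes Nr4a1, Nr4a2 and Nr4a3, and the Krüppel-like factor genes Klf2, Klf4, Klf6 and Klf10. They were chosen by name, and each was read from the 1 probe set that the platform annotation gives to that gene alone. All 10 were found among 19937 measured genes, and all 10 lay above the signal filter that left 13956 genes for testing. Expression was measured on 4 Affymetrix arrays of primary neurospheres, floating cultures of neural stem and progenitor cells, grown from the subventricular zone of C57BL/6 mice aged 9 to 12 weeks. All cells received non-targeting siRNAs and a pCLIG virus carrying Pax6, a neurogenic transcription factor, and were differentiated for 10 h on laminin without growth factors. All arrays also share 5 h with the virus, 36 h of culture after it and, outside the differentiation step, growth factor at 20 ng per ml. The control group (2 arrays) was kept in 0.01% DMSO. The treated group (2 arrays) was kept in 100 nM olaparib with the same amount of DMSO. Olaparib blocks PARP1 and PARP2, which add ADP-ribose chains at DNA breaks. The control cells thus share the virus, the siRNAs and the solvent with the treated cells, and the labels do not say what share of the cells carried the virus or how many animals each culture came from. The arrays of a group are labelled as biological replicates. The p-values measure only the spread between such replicates, estimated for each gene with the help of all genes tested.

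Immediate early genes are transcribed within minutes of a stimulus without the need for new protein synthesis, and their products switch on a second wave of genes. Egr factors bind GC-rich sites and are held in check by the corepressors Nab1 and Nab2. Nr4a factors are nuclear receptors that act without a bound hormone, as monomers on a site called the NBRE or as partners of retinoid X receptors. Klf factors bind GC-rich and CACCC elements and include both activators and repressors. In neural tissue many of these genes respond to growth factors, calcium and injury, through serum response factor at CArG boxes and through CREB at cyclic AMP response elements.

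Promoter sequences from RefSeq (GRCm38.p6) were matched for 7 of the 10 genes, and Egr1, Egr3 and Klf10 had no entry. The 250 bases before the start site are shown for 3 of them, since Klf6 was the one member past the test and Nr4a1 and Egr2 carry the elements through which such genes are classically induced. Klf6 lies on the plus strand at chr13:5861239-5861488, with its GC box in capitals. Nr4a1 lies on the plus strand at chr15:101266596-101266845, with half-sites of the cyclic AMP response element in capitals, which here read as their reverse complement. Egr2 lies on the plus strand at chr10:67537619-67537868, in one of its 5 annotated windows, with the CArG box in capitals. That window was chosen as the first by position to hold both a CArG box and a half-site.
Klf6: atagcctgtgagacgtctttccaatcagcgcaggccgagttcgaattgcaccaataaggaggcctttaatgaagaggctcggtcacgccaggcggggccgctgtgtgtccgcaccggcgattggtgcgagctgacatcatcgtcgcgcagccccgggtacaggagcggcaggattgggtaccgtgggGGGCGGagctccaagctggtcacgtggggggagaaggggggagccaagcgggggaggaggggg
Nr4a1: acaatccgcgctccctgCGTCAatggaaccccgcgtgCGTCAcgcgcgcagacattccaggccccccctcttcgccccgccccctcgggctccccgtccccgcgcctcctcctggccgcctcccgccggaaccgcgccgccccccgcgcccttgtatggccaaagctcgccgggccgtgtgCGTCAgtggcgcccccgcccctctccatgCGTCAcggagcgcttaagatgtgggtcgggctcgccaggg
Egr2: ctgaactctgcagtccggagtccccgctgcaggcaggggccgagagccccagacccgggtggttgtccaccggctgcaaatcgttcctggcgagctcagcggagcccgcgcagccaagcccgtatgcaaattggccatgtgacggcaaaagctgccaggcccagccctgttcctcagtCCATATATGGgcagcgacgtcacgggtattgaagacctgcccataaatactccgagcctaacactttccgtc
The half-site letters TGACG, which also form part of the complete element, were searched on both strands and occurred 4 times in Nr4a1, and 17.8% of all 32851 promoter windows held at least 1 copy. Nr4a2 and Nr4a3 also held 4 copies each, Klf2 and Klf4 held 1 each, Egr2 held a copy in 3 of its 5 windows, and Klf6 held 0. Those 3 Egr2 windows overlap one another and held 2 copies each. A CArG box stood 72 to 63 bases before the Egr2 start site shown, and 1.47% of all windows had one. The GC box GGGCGG, found in 32.7% of windows, occurred once in Klf6 and in at least 1 window of each of the 7 genes. Nr4a2, Klf4 and 1 of the Egr2 windows held 4 copies each and Nr4a1 held 3, while the Egr2 window shown held 0. None of the 7 genes held the complete response element TGACGTCA or the NBRE letters AAAGGTCA. Such matches are descriptions of the sequence only, and the arrays hold no measurement of binding.

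Klf6, a zinc finger factor that binds GC-rich promoter elements, was higher with olaparib and was the only member past the test. Its log2 value was 7.82 and 8.03 on the DMSO arrays and 8.47 and 8.54 on the olaparib arrays. Both olaparib arrays lay above both DMSO arrays, and the lowest olaparib value exceeded the highest DMSO value by 0.44. The mean rose from 7.93 ± 0.15 to 8.51 ± 0.05 (SD, n = 2 each), a change of 0.58 on the log2 scale or 1.49-fold (SE 0.10, limma adjusted p = 0.000967). The 95% interval of the change ran from 0.37 to 0.79. Of the 10 members 1 rose and 0 fell in limma, where 2.84% of all genes tested rose and 3.37% fell, or 6.22% in either direction. An unadjusted p under 0.05 was found for 1 member and for 19.1% of all genes tested. The DMSO arrays differed by 0.21 for Klf6, more than for 94.1% of the genes tested. Without DMSO replicate 1 the change was 0.48 and did not pass (adjusted p = 0.102), nor did it when limma estimated the spread from all probe sets together (adjusted p = 0.0877), a setting that called 0.086% of the genes tested and 0 members. Over its 14 alternatives the adjusted p of Klf6 lay between 1.17e-05 and 0.102.

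**Figure D1:**
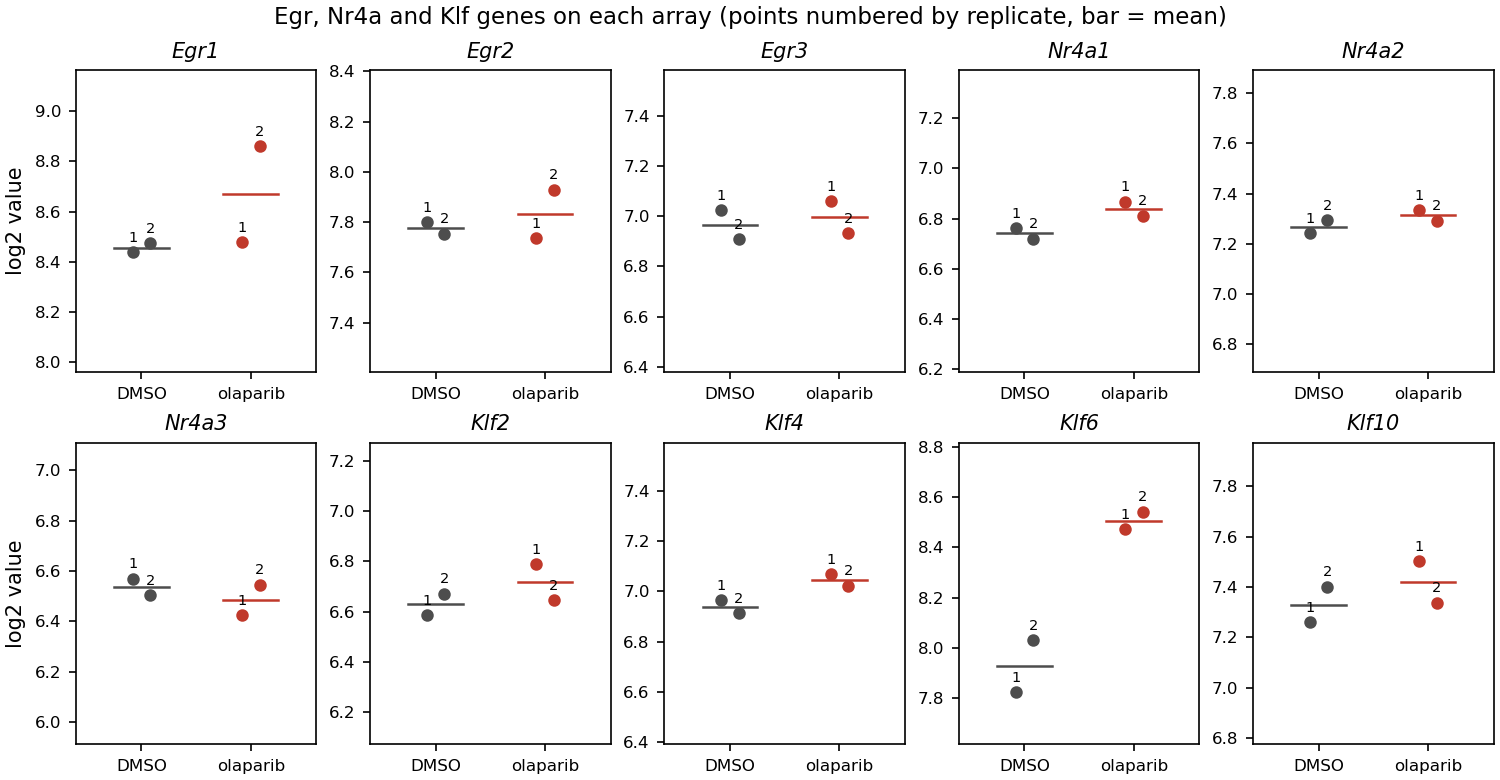
Log2 value of each of the 10 genes (1 panel per gene, each axis spanning the same log2 range) on the 2 DMSO arrays (grey) and 2 olaparib arrays (red), with points numbered by replicate and bars at group means. Klf6 shows the widest gap between groups, while the Egr1 gap rests on olaparib replicate 2, at 8.86.

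Among the Egr genes none passed. Egr1, which encodes the zinc finger factor also known for its part in neuronal plasticity, had log2 values of 8.44 and 8.47 with DMSO and 8.48 and 8.86 with olaparib. The first olaparib array lay 0.0038 above the higher DMSO array, so the groups were separated by almost nothing, and the second lay far above all the others. The change was 0.21 (SE 0.12, limma adjusted p = 0.341), with a 95% interval from -0.03 to 0.45. The gap of 0.38 between the olaparib arrays was wider than that of 98.3% of the genes tested. Without olaparib replicate 1 the change was 0.40 and passed (adjusted p = 0.00229), and without olaparib replicate 2 it was 0.02 (adjusted p = 0.924), in a range of 0.00229 to 0.954 over 14 alternatives. Egr2, a factor of hindbrain patterning and Schwann cell myelination, stood at 7.80 and 7.75 with DMSO and 7.74 and 7.93 with olaparib. Its groups overlapped, and olaparib replicate 2 was again the highest array. The change of Egr2 was 0.06 (SE 0.09, limma adjusted p = 0.841), with an interval from -0.13 to 0.25. Egr3, needed for muscle spindle development, stood at 7.02 and 6.91 with DMSO and 7.06 and 6.93 with olaparib. Those pairs interleaved, and the change of 0.03 (SE 0.08, limma adjusted p = 0.912) was smaller than the difference within either group.

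Among the nuclear receptor genes none passed, and the changes were smaller than those of Klf6 and Egr1. Nr4a1, the receptor also called Nur77, stood at 6.76 and 6.72 with DMSO and 6.87 and 6.81 with olaparib. Both olaparib arrays lay above both DMSO arrays, by at least 0.05, yet the change of 0.10 (SE 0.08, limma adjusted p = 0.572) did not pass. Nr4a2, or Nurr1, required for midbrain dopamine neurons, stood at 7.24 and 7.29 with DMSO and 7.33 and 7.29 with olaparib. The lower olaparib array was level with the higher DMSO array, and the change was 0.05 (SE 0.08, adjusted p = 0.851 in limma). Nr4a3 stood at 6.57 and 6.50 with DMSO and 6.42 and 6.55 with olaparib. It was the only member with a change below 0, at -0.05 (SE 0.08, limma adjusted p = 0.835), and its groups overlapped. The 95% intervals of the 3 receptor genes reached no higher than 0.26 and no lower than -0.22.

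Among the other Klf genes, Klf4, one of the pluripotency reprogramming factors, stood at 6.96 and 6.91 with DMSO and 7.07 and 7.02 with olaparib. The groups were separated by 0.06, and the change was 0.11 (SE 0.08, limma adjusted p = 0.517). Klf10, a repressor induced early by TGF-beta, stood at 7.26 and 7.40 with DMSO and 7.50 and 7.34 with olaparib. The arrays of both groups interleaved, and the change was 0.09 (SE 0.09, limma adjusted p = 0.668). Klf2, best known from endothelium under flow, stood at 6.59 and 6.67 with DMSO and 6.79 and 6.65 with olaparib. Its groups also overlapped, with a change of 0.09 (SE 0.08, limma adjusted p = 0.652).

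Over the 10 members, 9 changes lay above 0 and 1 below, where 50.5% of all genes tested had a change above 0. The median was 0.09, beside a median of 0.0013 over all genes tested. In 4 members (Klf6, Egr1, Klf4 and Nr4a1) every olaparib array lay above every DMSO array, and in 0 below, where 23.2% of all genes tested were separated upwards and 23.9% downwards, or 47.1% in all. For the 9 members other than Klf6 the 95% interval included 0. In 8 of them, all but Egr1, the upper end of the interval was at most 0.27, under the lower end of 0.37 for Klf6, but the difference between genes was not itself tested. Olaparib replicate 2 was above replicate 1 in 4 members (Egr1, Egr2, Nr4a3 and Klf6) and below it in the other 6. Klf4 and Nr4a1 had the most similar profiles of any pair of members, with a distance of 0.013 between their mean-centred log2 values over the 4 arrays. Outside the 10 genes, the profiles nearest to Klf6 over the 4 arrays were those of Fam13a (distance 0.042), Cflar, an inhibitor of caspase-8 (0.049), and Mpc1, a subunit of the mitochondrial pyruvate carrier (0.049). With 4 arrays such likeness is a description only.

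**Figure D2:**
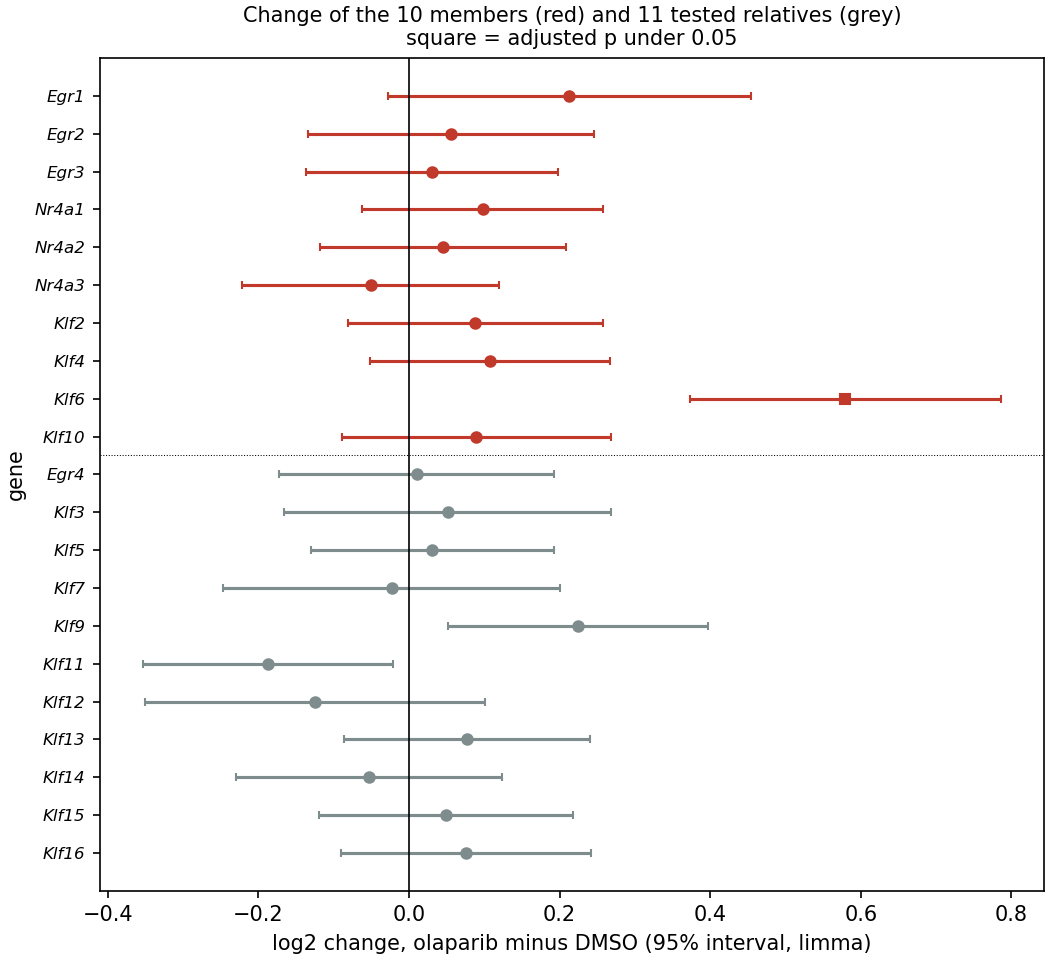
Log2 change (olaparib minus DMSO) with its 95% limma interval for the 10 members (red) and 11 tested relatives (grey), where a square marks an adjusted p under 0.05. Klf6 at 0.58 is the only square, and the interval of every other gene shown but Klf9 and Klf11 includes 0.

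Signal strength limits how much the smaller values can show. Of 31 genes of unrelated tissues, 27 were measured, with a median of 6.44, a 75th percentile of 6.64 and a highest mean of 7.77, that of Apoa2, followed by 7.09. The means of all 10 members over the 4 arrays lay above that median and those of 9, all but Nr4a3, above the 75th percentile. Klf10 and Nr4a2 lay above all unrelated genes but Apoa2, and Klf6, Egr1 and Egr2 lay above Apoa2 as well. The part of background signal in the size of the members' changes was not tested.

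**Figure D3:**
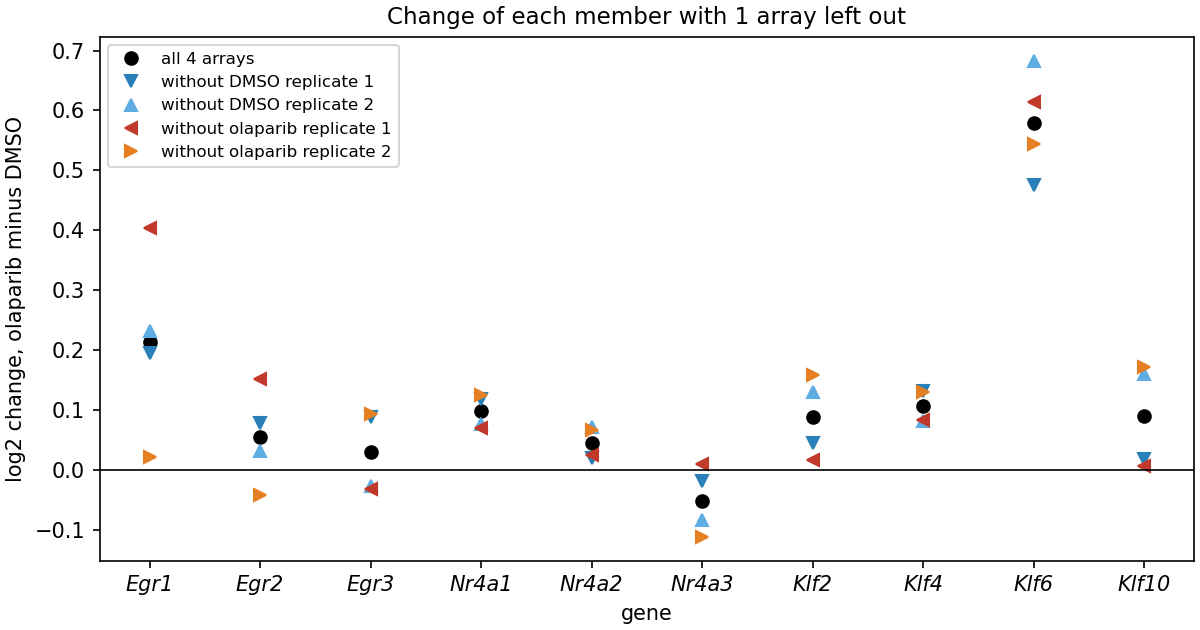
Log2 change of each member from all 4 arrays (black circles) and with 1 array left out (coloured triangles). Klf6 stays between 0.48 and 0.68, Egr1 runs from 0.02 to 0.40, and Egr2, Egr3 and Nr4a3 lie on both sides of 0.

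The relatives and regulators of these genes were then read from the same limma fit. Of 14 other Egr and Klf genes, 11 were tested and 0 passed, with 2 at an unadjusted p under 0.05, beside 19.1% of all genes tested. The smallest p belonged to Klf9, a factor induced by thyroid and glucocorticoid hormones, which stood at 7.14 and 6.94 with DMSO and 7.23 and 7.29 with olaparib (change 0.22, limma adjusted p = 0.124). Of 9 Sp genes, which share the zinc fingers of the Klf family, 5 were tested and 0 passed, with 0 at an unadjusted p under 0.05. Sp9 had the smallest p, at a change of -0.06 (limma adjusted p = 0.793).

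Among 6 partners of Egr and Nr4a proteins, 5 were tested, 2 rose and 0 fell, where 2.84% of all genes tested rose and 3.37% fell. Nab1, a corepressor of Egr factors, stood at 7.35 and 7.32 with DMSO and 7.71 and 7.66 with olaparib, a rise of 0.35 (SE 0.08, limma adjusted p = 0.0115). Rxra, a retinoid X receptor that pairs with Nr4a1 and Nr4a2, stood at 7.33 and 7.24 with DMSO and 7.51 and 7.65 with olaparib, a rise of 0.29 (SE 0.08, limma adjusted p = 0.0414). For both genes the olaparib arrays lay above the DMSO arrays, as they did for 23.2% of all genes tested. Neither passed when the spread was estimated from all probe sets (limma adjusted p = 0.146 and 0.232) or without either one of the DMSO arrays. Over 14 alternatives each, Nab1 passed in 11 and Rxra in 7, with adjusted p up to 0.166 and 0.436.

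Of 8 genes of serum response factor and its cofactors, all 8 were tested and 0 passed, with 2 at an unadjusted p under 0.05. Srfbp1 had the smallest p (change 0.17, limma adjusted p = 0.238). Of 16 CREB and MEF2 regulators, 0 rose and 1 fell, with 4 at an unadjusted p under 0.05, beside 19.1% of all genes tested. Counts with 1 array left out are not read for this list, since the counts over all genes moved in those fits too. The gene that fell was Hdac9, a class IIa deacetylase that represses MEF2, by 0.33 (limma adjusted p = 0.0490), and it did not pass without a filter on dim genes, under median centring, with all probe sets or with DMSO replicate 1, DMSO replicate 2 or olaparib replicate 1 left out (up to 0.499 over 14 alternatives). Of 10 TGF-beta pathway genes listed beside Klf10, 9 were tested and 0 passed, with 1 at an unadjusted p under 0.05, that of Ltbp1 (change 0.27, limma adjusted p = 0.104). Ltbp1 passed in 3 of its 14 alternatives, among them quantile normalization (limma adjusted p = 0.0443) and cyclic loess (0.0437). Its change ran from 0.22 to 0.32 with 1 array left out.

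Among 32 other immediate early genes, 10 rose and 0 fell, where 2.84% of all genes tested rose. The median change was 0.22 beside 0.0013 over all genes tested. That list was chosen with earlier results of these data known, so these values describe it and do not test it as a set. The 4 with the smallest p were Ier3 (0.70), an apoptosis regulator induced by stress, Atf3 (0.51), Fosl1 (0.51) and Gadd45b (0.52), with limma adjusted p from 8.15e-05 to 0.000842. The count was 0 with all probe sets. It was lower without either one of the DMSO arrays and higher without either one of the olaparib arrays. The count of higher genes over all genes tested moved in the same directions.

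**Figure D4:**
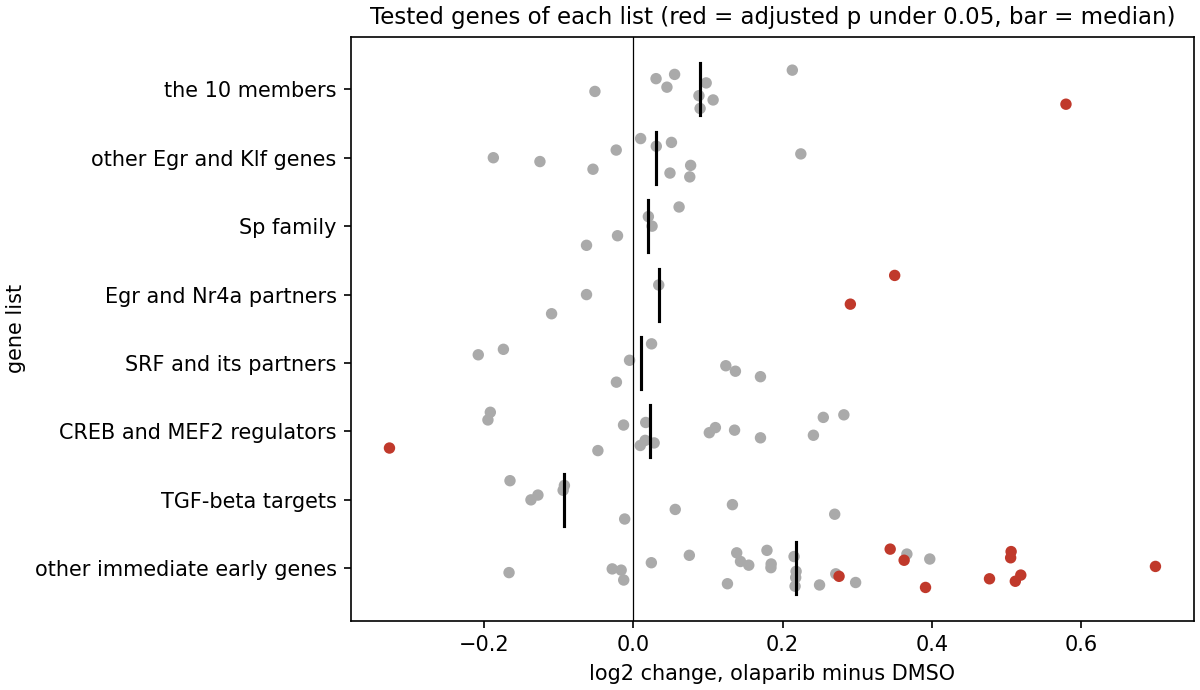
Log2 change (olaparib minus DMSO) of each tested gene by list, where red points have an adjusted p under 0.05 and bars are medians. The 10 members have 1 red point (Klf6), and the 32 other immediate early genes have 10, with a median of 0.22.

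Cell type markers were read beside these results. All 10 neural stem cell and astrocyte markers had means above the highest unrelated gene, while 0 of 9 microglial and 1 of 10 endothelial and mural markers did. The same held for 4 of 10 neuroblast and neuron markers, 2 of 7 measured oligodendrocyte lineage markers and 0 of 6 ependymal markers. Of the stem cell and astrocyte markers 0 rose and 2 fell, where 2.84% of all genes tested rose and 3.37% fell. The list's mean log2 value was 10.54 and 10.56 on the DMSO arrays and 10.21 and 10.42 on the olaparib arrays. Those that fell were Gfap, the intermediate filament of astrocytes, by 1.03, and the water channel gene Aqp4 by 0.71. In that list 3 of 10 changes lay above 0, and the median change was -0.19. Of 10 neuroblast and neuron markers, 9 were tested, of which 0 rose and 3 fell, with list means of 7.86 and 7.88 with DMSO and 7.51 and 7.56 with olaparib. Dcx, the doublecortin gene of neuroblasts, fell by 1.05, Gad2 by 0.67 and Map2 by 0.55. The mean of Gad2 over the 4 arrays, 7.11, lay under the highest unrelated gene, at 7.77. Of 8 oligodendrocyte lineage markers 7 were tested, of which 3 had a change above 0, with a list median of -0.06. Only Cspg4 passed, with a rise of 0.33, at a mean of 7.22 that also lay under the highest unrelated gene. The adjusted p of these 6 genes in limma was at most 0.0122, and Map2 and Cspg4 did not pass without either one of the DMSO arrays (adjusted p up to 0.317 and 0.186 over 14 alternatives each). Estimating the spread from all probe sets left only Dcx of the 6 past the threshold (adjusted p = 0.0448). Of the microglial, endothelial, ependymal and unrelated genes tested none passed, and the smallest p of each list was that of P2ry12 (-0.17), Flt1 (0.10), Rsph1 (-0.24) and Actn3 (-0.15). With 1 array left out the change of P2ry12 ran from -0.24 to -0.11 and that of Rsph1 from -0.31 to -0.18. The part of these marker shifts in the rise of Klf6 was not tested, and in bulk RNA fewer cells of a type and less RNA per cell cannot be told apart.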

How the data were processed

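Log2 values, 1 per probe set and array, were used as deposited by the authors on 4 arrays. RNA (40 ng) was amplified and labelled with biotin, per the labels' protocols, and the methods of background correction, normalization and probe summary are not given in the sources used here. The effect of those steps was therefore not tested, and the log2 scale was read from the values. Array medians ran from 6.60 to 6.68, and having 4 arrays limits the precision. Of 34760 probe sets, 21640 named 1 gene, 1321 named several and 11799 were not listed in the platform annotation, and each gene was read from its probe set with the highest mean. The dimmest 30 percent of genes by mean (log2 6.42 or less) were left out of the test.

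Changes are olaparib minus DMSO. The test, which was two-sided, used limma 3.58.1 (R 4.3.3), with lmFit followed by eBayes and its intensity trend. All 13956 p-values were adjusted together by the method of Benjamini and Hochberg, at a threshold of 0.05. With 2 arrays a group the residual degrees of freedom are 2, the limma prior adds 18.1, and an exact permutation test of 1 gene could not go below p = 0.333. The members, lists and tests were chosen with earlier results of these data known. Named genes were the 10 members, up to 4 genes past the threshold per list (otherwise the one with the smallest p), and the 3 profiles nearest to the member with the smallest p. The fit was tested on simulated data drawn from its own spread estimates, which cannot show how well those estimates hold for these arrays. Alternatives were other filters, normalizations and spread estimates, all probe sets in the fit, means of probe sets, other thresholds, and each array left out. Those for list genes and list counts were added after seeing the data. Figures were drawn with matplotlib 3.10.9.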

Additional observations from a re-analysis of the deposited data

How the results depend on the processing

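Klf6 was past the threshold in 12 of its 14 alternative fits, and its change lay between 0.48 and 0.68 in all 14. Other filters, spread estimates, array weights and all probe sets in the fit left that change at 0.58. Only the normalizations and the left-out arrays moved it. The mean of probe sets could not alter the values of Klf6, which had 1 probe set. Of 127 member results under the alternatives that could change a member's value or error, 120 kept their direction and side of the threshold. The member count of 1 higher was 0 with all probe sets in the fit and ran from 0 to 2 with 1 array left out, and 0 members were lower in each alternative. Over all genes, 397 were higher and 471 lower. The higher count was 257 without a filter, 1 with all probe sets in the fit, 606 at an adjusted p of 0.1 and 249 at a fold of at least 1.3, and ran from 97 to 1274 with 1 array left out. The lower count was 779 under quantile normalization, 732 under cyclic loess, 11 with all probe sets, 715 at an adjusted p of 0.1 and 273 at a fold of at least 1.3, and ran from 161 to 1032 with 1 array left out. Changes that turned sign with 1 array left out ran from -0.041 to 0.15 for Egr2, -0.032 to 0.093 for Egr3, -0.11 to 0.0096 for Nr4a3, -0.18 to 0.051 for Sp9 and -0.010 to 0.21 for Flt1. The all-probe-set fit had a prior of 5.25 degrees of freedom over 21704 rows, against 18.1 over 13956. A group left with 1 array is assumed to vary like the other. No paired analysis was possible because the labels pair no DMSO array with an olaparib array. The replicate numbers used here follow the order of deposit and only name the arrays. The alternative of another probe set was not run, since each member had 1.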
